A study of Homo sapiens with 9 samples.

Results

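The comparison set the libraries labelled shHES1 directly against those labelled shHES4 in A549 cells, a human lung adenocarcinoma line of epithelial origin. Its members were the count columns of the 3 shHES1 and the 3 shHES4 libraries, 6 of the 9 libraries of the series, and every gene that passed a filter on low counts. Of 60664 genes in the table, 16510 passed and were tested. All 9 libraries are RNA-seq profiles of total RNA from one line that differ, per the labels, only in the short hairpin RNA (shRNA) they carry, which targets HES1, targets HES4, or is the control shCtrl. The labels give neither the hairpin sequences, the number of hairpins per gene, the time after delivery, nor whether replicates came from separate cultures. The p-values thus reflect how these libraries varied, and that variation could be purely technical. The question this contrast answers is how the 2 hairpins' transcriptomes differ from each other, and the 3 shCtrl libraries are given beside it as a reference level and enter no test.

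HES1 and HES4 belong to the Hes family of basic helix-loop-helix repressors, which bind DNA as dimers and recruit Groucho corepressors. HES1 is a well-known target of Notch signalling. An shRNA is processed into a small RNA that guides cleavage of a matching transcript, so its effect on the target can be read as a lower RNA level. Type I interferon acts through transcription factors that bind a promoter element called the interferon-stimulated response element (ISRE), while hypoxia-inducible factors (HIF) switch on genes of glucose uptake, angiogenesis and matrix crosslinking.

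Values are CPM, which put each library's counts on the same depth scale by TMM factors, and differences are log2 of shHES1 over shHES4 with the standard error. A gene is called where edgeR's quasi-likelihood test gave a Benjamini-Hochberg adjusted p under 0.05. Totals were 25.6 to 27.6 M estimated counts in shHES1, 22.8 to 24.4 M in shHES4 and 23.9 to 26.4 M in shCtrl. Replicates of one group differed from each other with a chi-square per degree of freedom of 2.31 to 3.18, against 10.3 to 12.3 between the groups, so no library repeated another. The epithelial keratins KRT8 and KRT18 were abundant, at means of 3358 and 1575 CPM in shHES1. Alveolar type 2 markers were near 0, with SFTPA1 at 0 in both shHES groups and NAPSA at 1.77 and 1.94 CPM. Mitochondrially encoded transcripts took 6.53 to 6.69% of counts in shHES1, 5.89 to 6.16% in shHES4 and 6.23 to 7.16% in shCtrl, and the part of that difference in the results below was not tested.

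The targeted genes did not separate the 2 groups. HES1 stood at 9.15, 6.43 and 8.37 CPM in the shHES1 libraries, at 6.45, 6.82 and 7.03 CPM in shHES4 and at 7.03, 6.58 and 7.21 CPM in shCtrl. The groups overlapped, and the libraries labelled shHES1 were not lower than the others. The log2 difference was 0.24 ± 0.13, with a 95% interval from -0.03 to 0.51 and an adjusted p of 0.219. It was 0.13 without shHES1 replicate 1, and 0.37 without shHES1 replicate 2, where it passed the test in the direction opposite to a knockdown. HES4 stood at 18.4, 15.3 and 15.8 CPM in shHES1, at 20.5, 17.1 and 16.7 CPM in shHES4 and at 21.4, 25.5 and 27.9 CPM in shCtrl. Both hairpin groups lay below every shCtrl library for HES4, and they overlapped each other. Its difference was -0.13 ± 0.09, with a 95% interval from -0.32 to 0.06 and an adjusted p of 0.366. It was -0.03 without shHES4 replicate 1, -0.08 without shHES1 replicate 2 and -0.22 without shHES1 replicate 1, and among the alternatives run it passed the test only with GC content and length corrected for, also at -0.22. Since the test found no decrease of HES1 RNA to go with its hairpin, every direction below refers to the labels of the libraries.

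No other member of the family was called. HES6 differed by -0.26 ± 0.15 (adjusted p 0.252), HEY1 by 0.29 ± 0.20 (adjusted p 0.377) and HEYL by 0.16 ± 0.14 (adjusted p 0.500). HES7 and HES2 were lower still in counts, and HES3, HES5 and HEY2 did not pass the filter. Of 31 tested members of the Notch pathway, 4 were higher (12.9%) and 3 lower (9.68%) in shHES1, with a median of 0.03. These shares were close to those over all tested genes, 8.75% and 8.64%. The ligand JAG2 was higher by 0.37 ± 0.05, the Numb-like adaptor NUMBL was higher by 0.52 ± 0.10, and the receptor NOTCH1 differed by -0.23 ± 0.05 (adjusted p 0.00476). Without shHES4 replicate 1, 5 members were lower.

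Across all tested genes, 2871 were called, which is 17.4% of them. Higher in shHES1 were 1445 (8.75%) and lower were 1426 (8.64%). That balance depended on the scaling, with 1700 higher and 1258 lower under total-count scaling and 1453 higher and 1774 lower under the GC and length correction. Most differences were small. The median fold among called genes was 1.20, with quartiles of 1.13 and 1.39, and 214 genes (1.30% of those tested) reached a 2-fold difference, of which 166 had a mean under 5 CPM. The groups did not overlap for 98.1% of called genes and for 33.6% of all tested genes. The share called rose with level, from 4.51% below 1 CPM to 34.0% at 100 CPM or more. The shCtrl mean lay between the 2 groups for 2123 called genes (73.9%), against 40.1% of all tested genes. A large difference between the groups leaves more room between them, so the choice of called genes partly fixes that share.

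**Figure D1:**
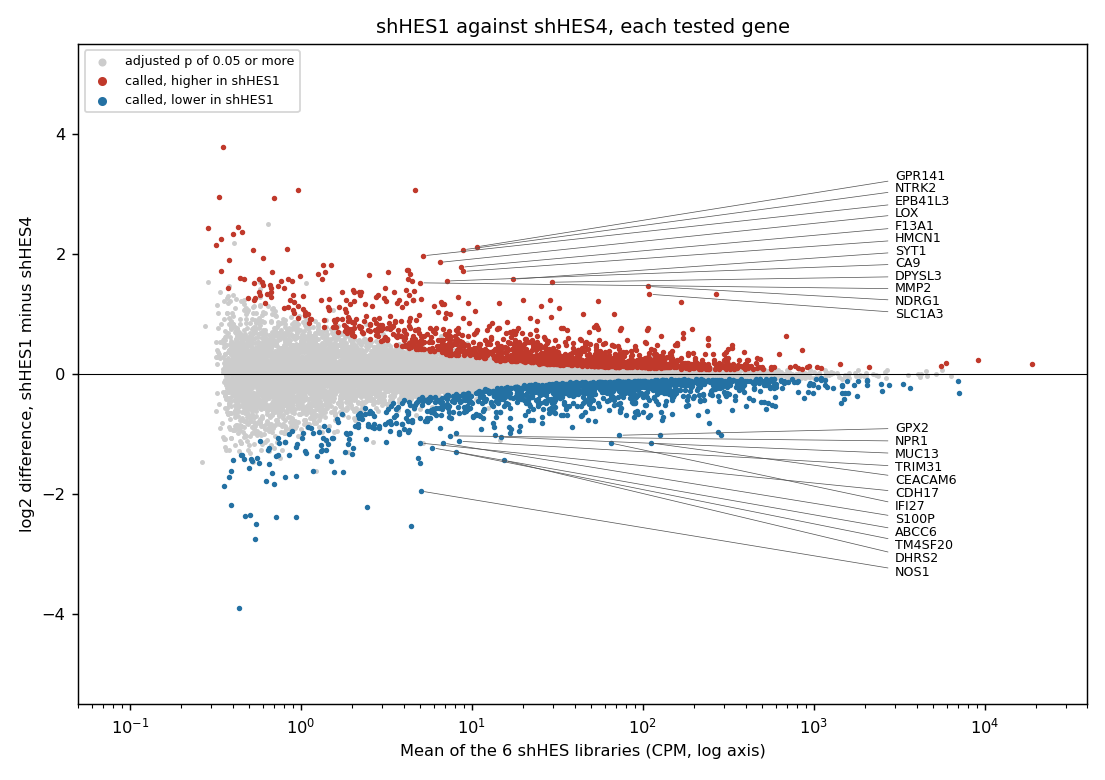
Each point is a tested gene, with its mean over the 6 shHES libraries in CPM on a log axis and its log2 difference (shHES1 minus shHES4) on the vertical axis. Red and blue points are the 1445 and 1426 called genes, and the 24 names are the 12 largest differences in each direction among genes of at least 5 CPM.

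Among genes of at least 5 CPM, the largest positive differences reached 4.35-fold. GPR141, an orphan G protein-coupled receptor on chromosome 7, stood at 17.8, 16.9 and 17.6 CPM in shHES1 and at 3.69, 3.87 and 4.44 CPM in shHES4. NTRK2, the receptor for the neurotrophin BDNF, stood at 13.6, 15 and 14.5 CPM against 3.42, 2.90 and 3.91 CPM. The naming rule admitted only genes whose groups do not overlap. For both genes shCtrl was close to shHES4 (means of 4.97 and 5.02 CPM). The differences were 2.12 ± 0.10 (adjusted p 7.94e-11) for GPR141 and 2.07 ± 0.11 (adjusted p 6.64e-10) for NTRK2. F13A1, the A subunit of coagulation factor XIII, stood at 13.3, 13.7 and 13.4 CPM against 4.58, 3.87 and 3.37 CPM. There it was shHES4 that lay far from shCtrl, whose mean was 10.8 CPM. SLC1A3, a glutamate and aspartate transporter, was at 156, 156 and 159 CPM against 62.3, 63.2 and 61.4 CPM, with shCtrl between at 92.1 CPM. EPB41L3, LOX, HMCN1, SYT1, CA9, DPYSL3, MMP2 and NDRG1 complete the 12, with differences from 1.97 for EPB41L3 to 1.46 for NDRG1.

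The largest negative differences reached 3.86-fold. NOS1, the neuronal nitric oxide synthase, stood at 1.78, 2.13 and 2.31 CPM in shHES1 and at 7.16, 8.80 and 8.06 CPM in shHES4, a difference of -1.95 ± 0.15 (adjusted p 4.18e-08). CEACAM6, a cell-surface adhesion molecule of carcinomas, stood at 71.9, 66.6 and 71.2 CPM against 158, 154 and 153 CPM, a difference of -1.15 ± 0.04 (adjusted p 7.18e-13). Groups that do not overlap were again required by the naming rule. For both genes shCtrl lay between the groups, at means of 4.23 and 113 CPM. GPX2, a glutathione peroxidase of epithelia, stood at 50.3, 49.2 and 45.6 CPM against 100.1, 101 and 92.9 CPM, a difference of -1.02 ± 0.05. The membrane mucin MUC13 (-1.05 ± 0.08), the intestinal cadherin CDH17 (-1.15 ± 0.14) and the calcium-binding protein S100P (-1.15 ± 0.12) moved the same way. DHRS2, TM4SF20, ABCC6, IFI27, TRIM31 and NPR1 complete the 12. The shCtrl mean lay between the groups for 23 of these 24 genes and below both for the remaining one, CA9.

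**Figure D2:**
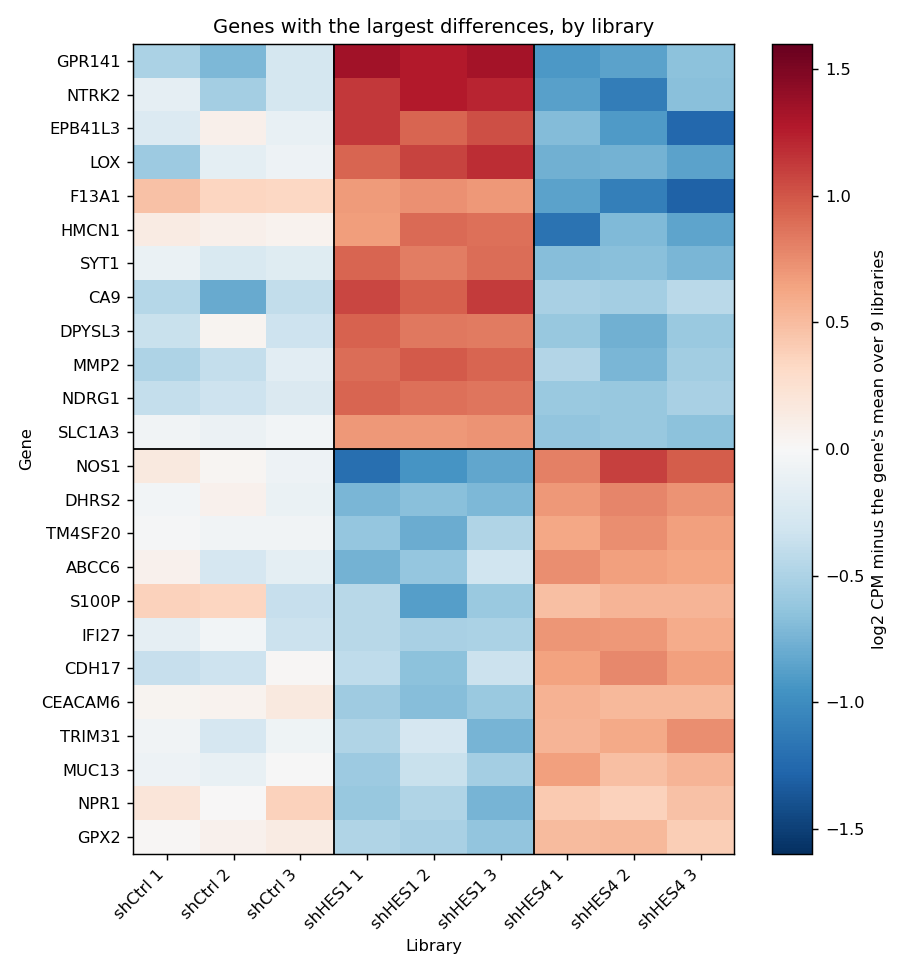
Rows are the 24 genes with the largest differences, columns the 9 libraries, and colour is log2 CPM minus the gene's mean over the 9 libraries. The rows were chosen for groups that do not overlap, and the shHES1 and shHES4 columns take opposite colours. In rows such as F13A1, IFI27 and TRIM31 the shCtrl columns lie on the side of shHES1, and in rows such as GPR141 on that of shHES4.

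Interferon-stimulated genes were lower in shHES1 than in shHES4. Of 56 tested members, 50 were lower and none higher, with a median of -0.42, where 8.64% of all tested genes were lower. One member was called higher with total-count scaling, with the GC and length correction, and without shHES4 replicate 1. IFI6, a mitochondrial antiapoptotic protein, stood at 184, 180.5 and 191 CPM in shHES1, at 367, 371 and 353 CPM in shHES4 and at 243, 234 and 194 CPM in shCtrl. OAS1, which makes the activator of RNase L, stood at 173, 174 and 181 CPM, at 312, 306 and 311 CPM, and at 228, 229 and 227 CPM. MX1, a dynamin-like antiviral GTPase, stood at 159, 163 and 162 CPM, at 259, 256 and 261 CPM, and at 189.8, 193 and 192 CPM. In all of these genes the highest shHES1 library was below the lowest shHES4 library, and shCtrl lay between. The differences were -0.97 ± 0.03 (adjusted p 7.18e-13), -0.81 ± 0.03 (adjusted p 2.76e-12) and -0.68 ± 0.03 (adjusted p 2.30e-11). IFI27 was at 41.7, 39.5 and 39.9 CPM against 92.1, 91.6 and 85.7 CPM (-1.15 ± 0.04).

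The list covered sensors, transcription factors and effectors. The ubiquitin-like modifier ISG15 differed by -0.60 ± 0.03, the RNA-binding IFIT1 by -0.52 ± 0.03 and the tetherin gene BST2 by -0.87 ± 0.07. The transcription factor IRF7 differed by -0.68 ± 0.05. All 50 called members had groups that did not overlap, as had 98.1% of all called genes. The folds of the 50 ran from 1.06 to 2.22. The shCtrl mean was between the groups for 42 of the 50 and below both for 8, against 73.9% and 14.1% of all called genes. The members not called were DHX58, EIF2AK2, IFITM2, IFI16, EPSTI1 and IFIT5. IFITM family members are near-identical copies, so their counts are uncertain. In a bulk sample, fewer cells expressing a gene and less RNA per cell cannot be told apart.

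Promoter sequence was shown for the 4 called members with the largest differences that hold the ISRE core, to set the element beside the values. The search covered the 250 bases before each RefSeq start (GRCh38.p14) for GAAA, any 2 bases and GAAA again, on either strand, and matches may overlap. Of the 56 genes, 45 had a RefSeq promoter (80.4%) and 24 of these (53.3%) held the element, against 839 of all 27305 RefSeq promoters (3.07%). A match describes the letters and says nothing of binding in these cells. Capitals mark the element in windows of 80 bases on the gene's strand, from chr14:94110606-94110685 (plus), chr1:27672241-27672320 (minus), chr19:17405710-17405789 (minus) and chr1:1013355-1013434 (plus).
IFI27: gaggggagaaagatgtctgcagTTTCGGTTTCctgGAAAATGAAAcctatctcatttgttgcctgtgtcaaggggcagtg
IFI6: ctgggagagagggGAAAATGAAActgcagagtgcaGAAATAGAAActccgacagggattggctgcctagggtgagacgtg
BST2: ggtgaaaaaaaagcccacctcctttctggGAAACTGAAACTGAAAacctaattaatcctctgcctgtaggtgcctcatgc
ISG15: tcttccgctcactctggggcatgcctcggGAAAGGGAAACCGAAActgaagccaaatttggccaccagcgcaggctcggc

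**Figure D3:**
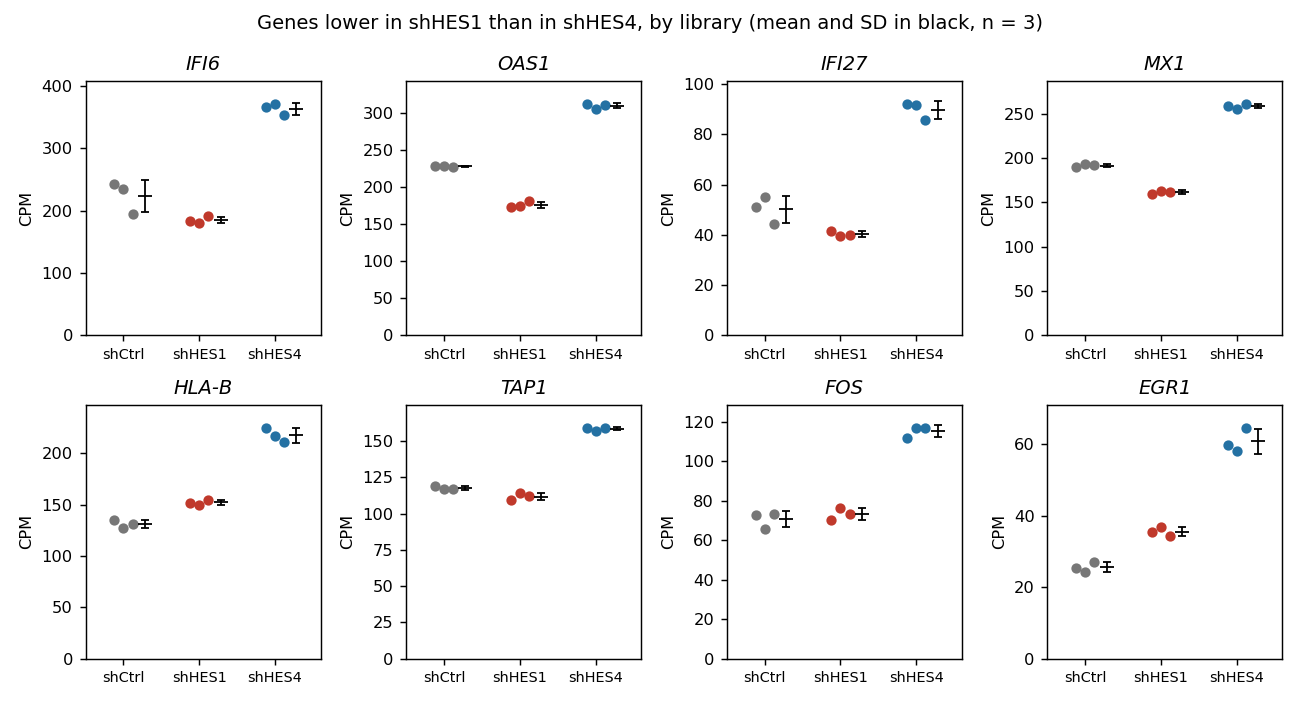
CPM of 8 genes lower in shHES1 than in shHES4, with one point per library and the mean and SD of 3 libraries in black. For IFI6, OAS1, IFI27 and MX1 the shCtrl points sit between the groups, whereas for HLA-B and EGR1 they sit below both.

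Genes of MHC class I antigen presentation were lower as well. Of 20 tested members, 12 were lower (60.0%, against 8.64% of all tested genes) and none higher (median -0.25). Of the 16 with a RefSeq promoter, 7 held the element (43.8%, against 3.07% of all RefSeq promoters). HLA-B, a class I heavy chain, stood at 152, 150.0 and 155 CPM in shHES1, at 225, 217 and 211 CPM in shHES4 and at 135, 127 and 131 CPM in shCtrl. Unlike IFI6, OAS1 and MX1 above, HLA-B was lowest in shCtrl. TAP1, a subunit of the peptide transporter, stood at 109, 114 and 112 CPM against 159, 157 and 159 CPM, with shCtrl at 119, 117 and 117 CPM. The differences were -0.52 ± 0.03 (adjusted p 2.62e-09) and -0.51 ± 0.03 (adjusted p 3.58e-09). The immunoproteasome subunit PSMB9 differed by -0.59 ± 0.06 and HLA-C by -0.36 ± 0.03. HLA genes share sequence, and reads may have been split between them. Among the 12, shCtrl was between the groups for 6 and below both for 6, against 73.9% and 14.1% of all called genes.

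HIF target genes were higher in shHES1. Of 28 tested members, 19 were higher and none lower, with a median of 0.28, where 8.75% of all tested genes were higher. One member was called lower by DESeq2 and with the GC and length correction. NDRG1, a stress-responsive gene, stood at 162, 157 and 154 CPM in shHES1, at 56.2, 56 and 59.4 CPM in shHES4 and at 65.4, 67.4 and 72.4 CPM in shCtrl. SLC2A3, the glucose transporter GLUT3, stood at 247, 245 and 244 CPM, at 143, 145 and 148 CPM, and at 182, 182 and 189 CPM. EGLN3, a prolyl hydroxylase that marks HIF for destruction, stood at 38.2, 39.5 and 42.9 CPM, at 17.4, 17.4 and 16.4 CPM, and at 21.4, 18.9 and 19.0 CPM. The shHES1 libraries stood apart on the high side in each case, and for NDRG1 and EGLN3 shCtrl was much nearer to shHES4. The differences were 1.46 ± 0.04 (adjusted p 3.80e-14), 0.75 ± 0.03 (adjusted p 8.73e-12) and 1.24 ± 0.06 (adjusted p 1.72e-10).

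ANGPTL4, a secreted inhibitor of lipoprotein lipase, differed by 1.00 ± 0.04, and the mitophagy receptor BNIP3L by 0.79 ± 0.05. The carbonic anhydrase CA9 stood at 10.8, 10 and 11.2 CPM against 3.60, 3.52 and 3.82 CPM (1.55 ± 0.11), and the angiogenic factor VEGFA at 166, 159 and 158 CPM against 128, 122 and 129.9 CPM (0.35 ± 0.03). Among the 19, shCtrl was between the groups for 15 and below both for 4, against 73.9% and 14.1% of all called genes. The glycolysis list moved less than the HIF targets. Of its 20 members, 6 were higher and 1 lower, with a median of 0.05. The share higher was still above the 8.75% of all tested genes, of which 8.64% were lower. The aldolase ALDOC (1.28 ± 0.12), the enolase ENO2 (0.33 ± 0.04) and PFKFB4 (0.39 ± 0.09) were higher, and the lactate dehydrogenase subunit LDHB was lower (-0.18 ± 0.03). The abundant LDHA differed by 0.06 ± 0.02 (adjusted p 0.0857) and PGK1 by -0.02 ± 0.02 (adjusted p 0.669).

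**Figure D4:**
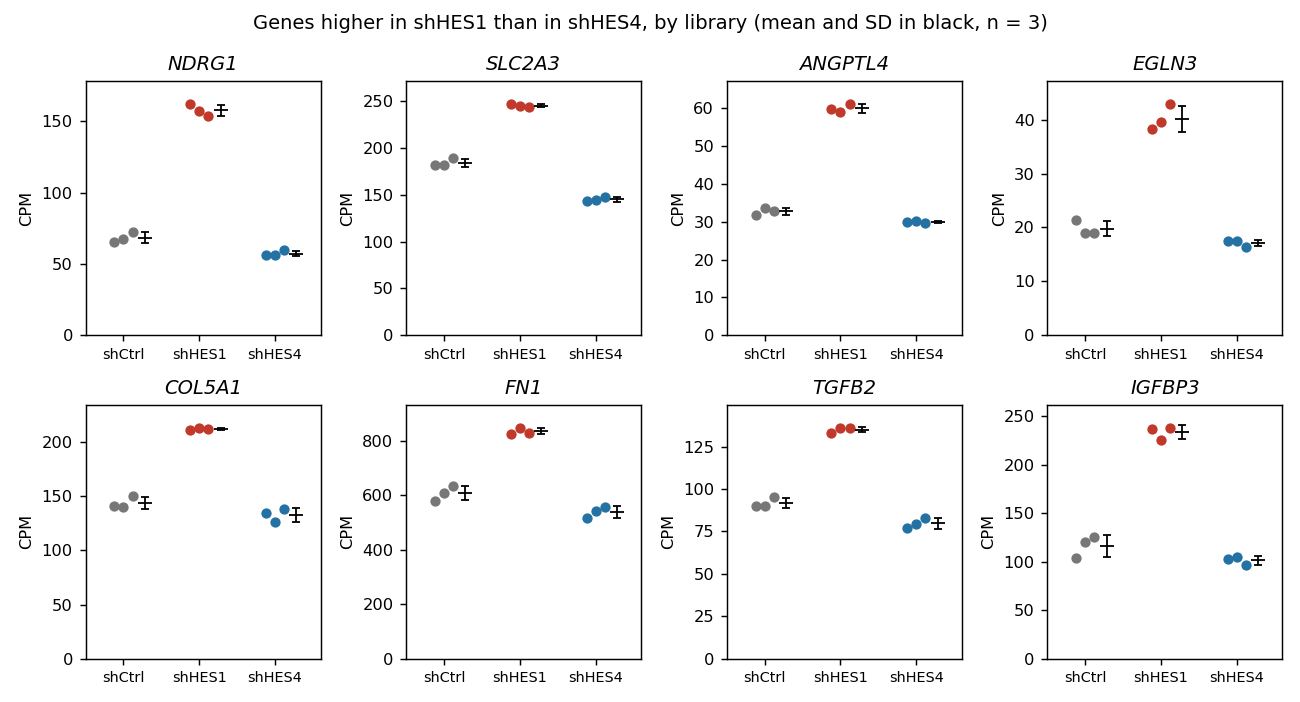
CPM of 8 genes higher in shHES1 than in shHES4, with one point per library and the mean and SD of 3 libraries in black. The upper row holds HIF targets and the lower row matrix and growth-factor genes, and in every panel the shHES1 points lie above all others.

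Collagens and other matrix genes followed the same direction. Of 21 tested collagens, 12 were higher (57.1%) and 1 lower (4.76%), with a median of 0.28. Of 41 matrix glycoproteins and enzymes, 15 were higher (36.6%) and 6 lower (14.6%), with a median of 0.18. Among all tested genes 8.75% were higher and 8.64% lower. COL5A1, a fibrillar collagen chain, stood at 211, 213 and 212 CPM in shHES1, at 134, 126 and 138 CPM in shHES4 and at 141, 139.6 and 150.2 CPM in shCtrl. FN1, fibronectin, stood at 826, 847 and 829 CPM, at 516, 542 and 557 CPM, and at 580.2, 609.5 and 633 CPM. Both genes were highest in every shHES1 library and differed by 0.68 ± 0.03 (adjusted p 2.27e-10) and 0.63 ± 0.03 (adjusted p 6.21e-11). COL5A2 (0.51 ± 0.03), COL12A1 (0.77 ± 0.06), the proteoglycan VCAN (0.74 ± 0.04) and the lysyl oxidase LOXL2 (0.48 ± 0.03) were higher too. Not every matrix gene was: the basement membrane protein NID2 stood at 424, 422 and 415 CPM against 623, 619 and 638 CPM (-0.58 ± 0.03), and the perlecan gene HSPG2 differed by -0.38 ± 0.04. With the GC and length correction 2 collagens were lower, and the median of the matrix list was 0.12, as it was with a minimum of 5 CPM.

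Markers of other cell types were low. Of 5 fibroblast markers 3 were tested, and only COL1A1 was called, at 13.5, 13.2 and 12.9 CPM in shHES1 against 6.0, 5.89 and 5.47 CPM in shHES4. The list summed to 19.3 to 19.8 CPM in shHES1, 11.1 to 12.7 CPM in shHES4 and 12.9 to 17.5 CPM in shCtrl, with DCN and PDGFRA under 0.5 CPM in both shHES groups, and its part in the collagen result was not tested. Of 6 leukocyte markers, CD3E was at 0 in every library and PTPRC was at 0 in every shHES1 library. CD68, which many cell types express in lysosomes, set most of that list's sum of 77.1 to 80.2 CPM in shHES1, 105 to 109 CPM in shHES4 and 80.7 to 96.1 CPM in shCtrl.

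In the list of 23 integrins and laminins, 2 were higher (8.70%) and 5 lower (21.7%), with a median of -0.02. Of all tested genes 8.75% were higher and 8.64% lower. The laminin chain LAMB3 differed by -0.39 ± 0.03 and the integrin ITGB3 by 0.61 ± 0.06. With the GC and length correction 9 were lower and the median was -0.07, and with a minimum of 5 CPM 1 was higher. In the epithelial and mesenchymal list of 20, 6 were higher and 5 lower (median 0.05), and without shHES4 replicate 2 only 3 were higher. The median turned to -0.05 with a minimum of 5 CPM, -0.02 with no filter and -0.01 with the GC and length correction. CDH2, N-cadherin, stood at 157, 153 and 158 CPM against 102, 103 and 98.4 CPM (0.63 ± 0.03), while the keratin KRT18 stood at 1589, 1559 and 1579 CPM against 2108, 1973 and 2026 CPM (-0.37 ± 0.03). CDH1, E-cadherin, was also slightly higher (0.16 ± 0.03), so the list did not move one way.

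Of 26 TGF-beta pathway genes, 11 were higher (42.3%) and 4 lower (15.4%), against 8.75% and 8.64% of all tested genes (median 0.11). The ligand TGFB2 stood at 133, 136 and 136 CPM against 76.9, 79.2 and 83.1 CPM (0.76 ± 0.04), the receptor TGFBR2 differed by 0.34 ± 0.03 and the inhibitor SMAD6 by 0.37 ± 0.04. Among 30 YAP/TAZ targets and Hippo genes, 11 were higher (36.7%) and 4 lower (13.3%), with a median of 0.10. IGFBP3, which binds insulin-like growth factors, stood at 237, 225 and 238 CPM against 103, 105 and 96.3 CPM (1.20 ± 0.04). The classical targets CCN1 (-0.30 ± 0.05) and CCN2 (-0.26 ± 0.07) were lower. Of 26 receptor tyrosine kinases 8 were higher (30.8%) and 4 lower (15.4%). NTRK3 stood at 92.4, 94.8 and 94.3 CPM against 55.1, 54.3 and 56.5 CPM (0.76 ± 0.04), and the stem cell factor receptor KIT differed by 1.31 ± 0.16. Only 5 were higher by DESeq2, without shHES1 replicate 1 and without shHES4 replicate 3, and 2 were lower without shHES1 replicate 1.

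Immediate early genes, which growth signals switch on within minutes, were lower in shHES1. Of 27 tested, 16 were lower (59.3%) and 1 higher (3.70%), against 8.64% and 8.75% of all tested genes (median -0.25). FOS stood at 70.2, 76.4 and 73.3 CPM in shHES1, at 112, 117 and 117 CPM in shHES4 and at 72.7, 66.0 and 73.5 CPM in shCtrl. EGR1 stood at 35.4, 36.8 and 34.4 CPM, at 59.7, 57.9 and 64.5 CPM, and at 25.4, 24.3 and 27.0 CPM. For FOS the shHES1 and shCtrl libraries overlapped and shHES4 stood above both. The differences were -0.66 ± 0.04 (adjusted p 1.70e-09) and -0.77 ± 0.05 (adjusted p 5.28e-09). The single higher member was lost without shHES4 replicate 2, and 2 were higher without shHES4 replicate 1 and with no filter. In the list of ERK output and EGF ligands, 11 of 25 were lower and 3 higher (median -0.09). The EGF receptor ligands AREG, at 36.7, 35.6 and 35.2 CPM against 57.0, 55.9 and 54.4 CPM, and EREG, at 58.9, 64.3 and 61.0 CPM against 93.3, 105 and 99.6 CPM, were among the lower ones, and the ligand NRG1 was higher (0.33 ± 0.03).

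Inflammatory genes split. Of 32 NF-kB and inflammatory genes, 8 were higher and 5 lower (median 0.01, or -0.01 without shHES4 replicate 2), with the complement component C3 (0.40 ± 0.02) and the chemokine CXCL1 (0.48 ± 0.03) higher and NFKB2 (-0.30 ± 0.03) lower. Of 30 p53 targets, 10 were lower (33.3%, against 8.64% of all tested genes) and none higher (median -0.13). CCNG1, cyclin G1, stood at 39.4, 38.5 and 38.6 CPM against 67.9, 67.1 and 66.3 CPM (-0.79 ± 0.04), and shCtrl was close to shHES4 at 67.7, 61.2 and 65.1 CPM. The cytokine GDF15 (-0.50 ± 0.04), the p53 ubiquitin ligase MDM2 (-0.31 ± 0.04) and the cyclin-dependent kinase inhibitor CDKN1A (-0.25 ± 0.03) were lower too.

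Cell cycle lists moved in opposite directions by small amounts. Of 37 G1/S and replication genes, 13 were lower (35.1%, against 8.64% of all tested genes) and none higher (median -0.11). Among the lower ones were the sliding clamp PCNA (-0.25 ± 0.03) and the helicase subunit MCM3 (-0.21 ± 0.03). Between 1 and 2 were higher under several alternatives, 1 of them without shHES1 replicate 2 and without shHES4 replicate 1. TOP2A (0.18 ± 0.03) and CENPF (0.18 ± 0.03) led the G2/M list, while CCNB1 differed by 0.01 ± 0.03 (adjusted p 0.930). Of its 33 genes, 9 were higher (27.3%, against 8.75% of all tested genes) and none lower (median 0.09). That count fell to 4 without shHES1 replicate 1 and to 5 without shHES4 replicate 1 or 3. Of 18 tested replication-dependent histones, 8 were lower (44.4%) and none higher (median -0.24), with H2BC12 at -0.63 ± 0.03. The median was -0.43 with a minimum of 5 CPM and -0.32 without shHES4 replicate 2. Histone genes are near-identical copies, so the split of reads among them is uncertain.

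Antioxidant genes driven by NRF2, which A549 cells express highly, included 19 lower members. Of 38 tested, 19 were lower and 4 higher (median -0.09), where 8.64% of all tested genes were lower and 8.75% higher. With total-count scaling 7 were higher. FTL, the ferritin light chain, stood at 6489, 6248 and 6355 CPM against 8148, 7769 and 7801 CPM (-0.31 ± 0.02). For FTL shCtrl lay above both groups, at 8374, 8364 and 8549 CPM. The quinone reductase NQO1 stood at 1201, 1172 and 1212 CPM against 1434, 1432 and 1382 CPM (-0.24 ± 0.02). The dehydrogenase ALDH3A1 was lower (-0.30 ± 0.03) and AKR1C3 higher (0.27 ± 0.03). FTH1, the ferritin heavy chain, differed by 0.06 ± 0.03 (adjusted p 0.111). Of 29 ATF4 and unfolded protein response genes, 8 were higher (27.6%) and 4 lower (13.8%), against 8.75% and 8.64% of all tested genes (median 0.01). The secreted glycoprotein STC2 differed by 0.32 ± 0.03 and the transcription factor ATF5 by -0.44 ± 0.05.

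Calls in lipid synthesis, chaperone and respiration genes are read against the 8.75% of all tested genes called higher and 8.64% called lower. The share called in either direction was 17.4% over all tested genes but 34.0% at 100 CPM or more, and levels were not matched. Of 33 cholesterol and fatty acid synthesis genes, 5 were higher (15.2%) and 3 lower (9.09%), with a median of 0.04. The desaturase SCD differed by -0.28 ± 0.02. Without shHES1 replicate 2, 3 were higher, and with the GC and length correction 8 were lower. Of 24 heat shock proteins 2 were higher (8.33%) and 1 lower (4.17%). That 2 became 1 without shHES1 replicate 1 or without shHES4 replicate 2 or 3. With the GC and length correction 4 were higher and 3 lower. Of 66 nuclear genes of oxidative phosphorylation, 3 were higher (4.55%) and 9 lower (13.6%). The 3 became 1 by DESeq2 and without shHES1 replicate 1 or 3 or shHES4 replicate 2, and 0 without shHES4 replicate 3. The 9 became 4 in the fit on all 9 libraries and without shHES1 replicate 2.

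Ribosomal protein and mitochondrial transcripts went opposite ways. Of 74 cytosolic ribosomal protein genes, 37 were lower and none higher (median -0.09), where 8.64% of all tested genes were lower. The lower ones were led by RPLP1 (-0.40 ± 0.03) and RPS12 (-0.32 ± 0.04). The 37 became 27 in the fit on all 9 libraries, 25 without shHES1 replicate 2 and 46 without shHES4 replicate 3. Levels were not matched, and 34.0% of tested genes at 100 CPM or more were called in either direction. Together the ribosomal protein genes took 4.38 to 4.53% of counts in shHES1, 4.58 to 4.81% in shHES4 and 4.29 to 4.75% in shCtrl. These genes have many processed pseudogenes, so their counts are uncertain. Of 13 mitochondrially encoded genes, 4 were higher (30.8%, against 8.75% of all tested genes) and none lower (median 0.07). The 4 became 9 without shHES4 replicate 1 or with the GC and length correction, 8 with total-count scaling and 2 in a fit on all 9 libraries. MT-CO1, a subunit of cytochrome c oxidase, stood at 20261, 20049 and 19864 CPM against 18253, 17493 and 17573 CPM (0.17 ± 0.02). MT-RNR2, MT-CO3, MT-CO2, FTL and EEF1A1 were the other called genes with the most counts, and MT-CO2 lost its call in the fit on 9 libraries.

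**Figure D5:**
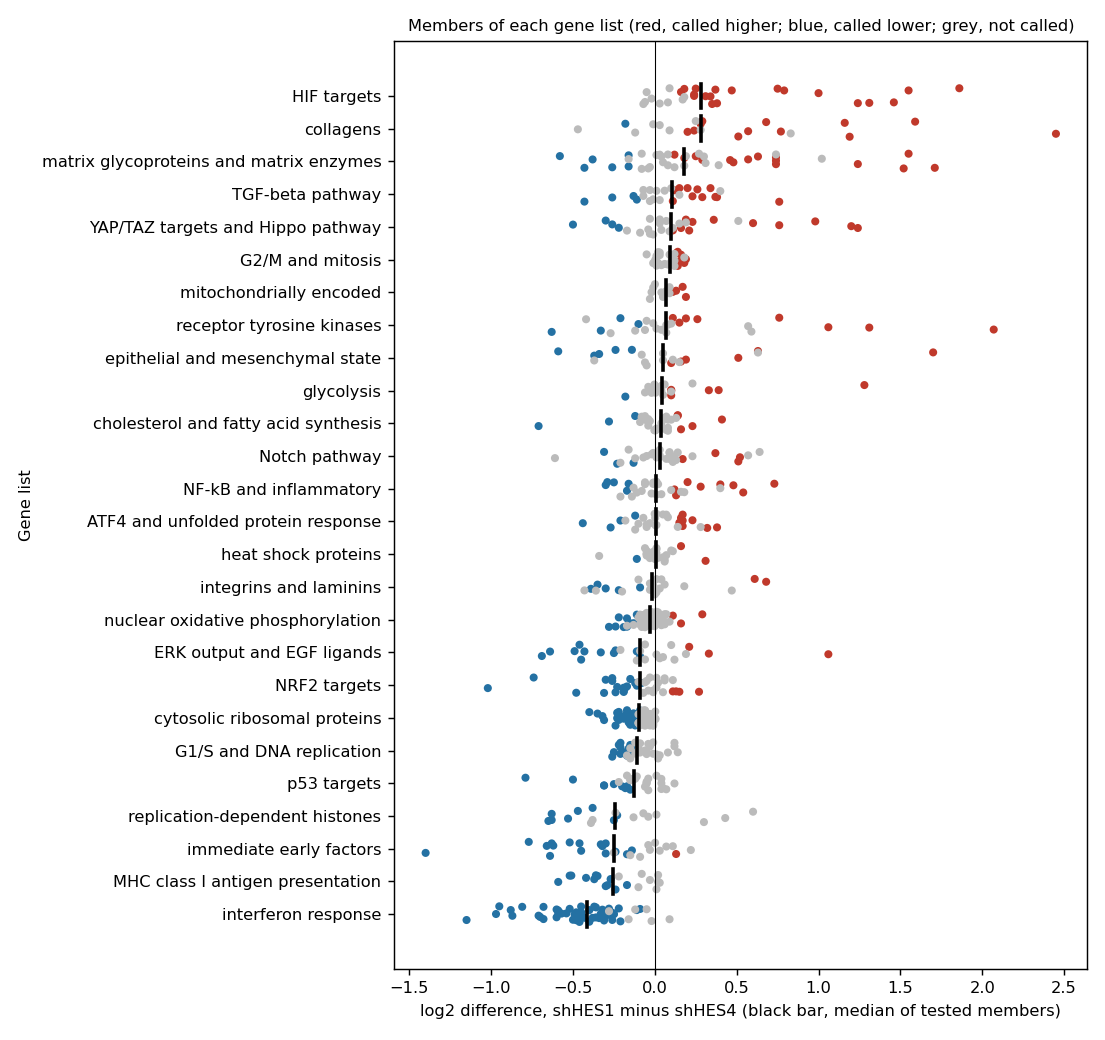
Each point is a tested member of a gene list, placed by its log2 difference (shHES1 minus shHES4), and the black bar is the list's median. Among the lists plotted, which leave out the HES and HEY family and the cell type markers, the interferon list has the lowest median, -0.42, and HIF targets and collagens the highest, 0.28.

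Transcript length moved with direction. The longest annotated transcript had a median of 4624 bases for genes higher in shHES1, 3000 bases for lower genes and 3280 bases for genes not called. With genes ranked by that length into 4 bins of like size, 188 of the shortest bin were higher and 429 lower, and 620 of the longest bin were higher and 283 lower. With GC content and length corrected for, those counts were 301 and 366, and 441 and 593, so the split of the longest bin turned. With that correction 12 collagens and 15 matrix genes were still higher, and 35 ribosomal protein genes, 51 interferon-stimulated genes and 12 MHC class I genes were lower.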

How the data were processed

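Per the labels' protocols, TRIzol was used to extract total RNA and a SMARTer kit to prepare the libraries. The authors deposited one table of estimated counts per gene, of which 35.5% of nonzero values were not whole (tolerance 1e-06). For the aligner, the counter and the strand setting, nothing is given in the sources used here. Without strand, a gene and its antisense partner cannot be told apart. Mouse builds (GRCm38, mm10) stand in the submitters' processing notes, while the identifiers are human.

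Values were rounded to whole counts. The 6 shHES libraries were filtered with filterByExpr, scaled with TMM and tested with edgeR 4.0.16 (R 4.3.3) by its quasi-likelihood test with Benjamini-Hochberg adjustment over 16510 genes. The shCtrl libraries were put on the same scale. Names matched 60463 of 60664 identifiers, coordinates and lengths came from GENCODE 29, and 98.7% of tested genes had GC and length. Scripts were tested on simulated data.

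Genes were named by a rule: the HES and HEY family, the 12 largest differences in each direction among called, non-overlapping genes of at least 5 CPM, the 6 called genes with the most counts, and up to 4 called members per direction and list. Others named were chosen after their values were seen. The members and the 32 lists were chosen with earlier results of these data known, and 2 list symbols had no match. Some list members are not reported here. Alternatives were DESeq2 1.42.0, other scalings and filters, a fit on 9 libraries, a replicate block, a GC and length correction and leaving out each library.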

Additional observations from a re-analysis of the deposited data

How the results depend on the processing

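The count of 2871 called genes stayed within 1.5 times in all 14 alternatives. It was 2238 by DESeq2, 2546 in the fit on all 9 libraries, 2958 with total-count scaling, 3080 with no filter and 3227 with the GC and length correction, and 2124 to 2487 with one library left out. The 214 genes with a 2-fold difference became 48 with a minimum of 5 CPM, which tests fewer genes, 167 by DESeq2 and 300 with no filter, and 199 to 215 with one library left out. A replicate block gave 2991 called genes, although the numbers did not pair the libraries (same-numbered deviations from the group means correlated at -0.005, 0.053 and 0.037). No gene called among the named and listed ones reversed, 301 of 382 kept the call in every alternative that tested them, and 81 lost it in at least one. The alveolar type 2 and endothelial lists had no member left at 5 CPM. All 24 genes with the largest differences kept theirs. Of 64 list counts, 41 stayed within 1.5 times throughout. With 3 libraries a group and no stated separate cultures, the spread here may be smaller than that between cultures, and low counts limit genes under 1 CPM, of which 4.51% were called.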

Other observations

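Several genes below 5 CPM had larger fold differences than those named in the report, and they were chosen after their values were seen. WIF1, a secreted Wnt inhibitor, stood at 8.24, 8.84 and 8.06 CPM in shHES1, at 1.33, 0.836 and 0.822 CPM in shHES4 and at 2.90, 3.27 and 3.14 CPM in shCtrl (3.07 ± 0.18, edgeR adjusted p 1.03e-09). HFM1, a meiotic helicase, went the other way, at 1.38, 0.271 and 2.23 CPM against 5.60, 8.36 and 8.55 CPM, with shCtrl at 1.49, 0.170 and 0.880 CPM (-2.53 ± 0.33). SDS, the serine dehydratase gene, stood at 0.762, 0.930 and 0.871 CPM against 3.83, 4.05 and 4.11 CPM (-2.22 ± 0.20). The groups did not overlap for any of these genes, and the shHES1 libraries of HFM1 varied among themselves more than those of the others.

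Of 1529 tested lincRNA and antisense genes 5.10% were called, and of 13698 protein-coding genes 19.8%, a difference that was not tested. Levels were not matched, and the share called rose from 4.51% below 1 CPM to 34.0% at 100 CPM or more. Of the lincRNA and antisense genes called, 17 were higher and 61 lower. With the GC and length correction or with no filter 28 were higher, and by DESeq2 11. With a minimum of 5 CPM 11 were higher and 37 lower. The nuclear RNAs NEAT1, at 809, 918 and 913 CPM against 1038, 1071 and 1196 CPM (-0.32 ± 0.05), and MALAT1, at 1029, 1161 and 1129 CPM against 1327, 1252 and 1292 CPM (-0.22 ± 0.04), were lower in shHES1. By chromosome, the share called ran from 13.2% on chromosome 13 to 23.1% on chromosome 18 among the numbered chromosomes and X.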
